A study of Mus musculus with 8 samples.

Results

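Lipopolysaccharide, the outer membrane glycolipid of gram-negative bacteria such as Bacteroides thetaiotaomicron (B. theta), is sensed by a receptor complex built around Toll-like receptor 4, encoded by Tlr4. The genes described here are Tlr4, its co-receptor Ly96 (MD-2), the LPS-transfer proteins Lbp and Cd14, the adaptors Myd88, Tirap, Ticam1 (TRIF) and Ticam2 (TRAM), and for contrast the receptors Tlr2 and Tlr5. Every probe set annotated to exactly 1 of these symbols was taken, which gave 14 probe sets of 45037 and 9 of the 10 genes; no probe set was annotated to Ticam2 alone, and Ticam2 is not analysed here. The genes were chosen by their values in this same comparison, because Tlr4, Ly96 and Cd14 were already known to be lower with the mutant strain on these arrays. Their differences between groups are therefore a description, and no test of them is offered as support.

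Colonic epithelial cells came from 4 male SPF mice colonized with BTΔMAFF, a B. theta strain from which the MAFF locus was deleted, and from 4 colonized with the parental strain BTWT. All 8 were C57BL/6 mice that had received metronidazole and ciprofloxacin (SPF-Abx), were colonized at 8 wk of age, and were sampled at 12 wk, after 4 wk of colonization. Antibiotics-treated mice without B. theta, or with the complemented mutant, were not analysed here. Living EpCAM+ cells without CD45 were sorted to a purity of 90 to 95%, so other cell types could make up the remainder. Each mouse gave 1 Affymetrix array. The deposited log2 values had the median of the 8 arrays subtracted for each probe set, so every value below is a difference from that median and neither a level nor a detection call can be given. A log2 difference is BTΔMAFF minus BTWT, and its standard error (SE) is that of a limma fit over all probe sets. In sorted bulk RNA, fewer cells of a type and less RNA per cell cannot be told apart.

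At the cell surface, LBP extracts LPS from bacterial membranes and hands it to CD14, which passes it to MD-2 bound to TLR4. The receptor then signals from the plasma membrane through TIRAP and MyD88 toward NF-κB and inflammatory genes, and after endocytosis through TRAM and TRIF toward interferon regulatory factors. TLR2 recognizes bacterial lipoproteins and TLR5 recognizes flagellin, and both use MyD88. In the colon the epithelium is usually described as weakly responsive to LPS, and myeloid cells can carry CD14 and TLR4.

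All 4 BTΔMAFF mice lay below all 4 BTWT mice in 4 of the 14 probe sets, 3 of Tlr4 and the 1 of Ly96, and in none did they all lie above. Among all 45037 probe sets, 1.27% showed that lower separation. At an unadjusted p under 0.05 from limma, 5 member probe sets were lower and 0 were higher, the fifth being Cd14; 2.24% of all probe sets were lower at that threshold. Because this contrast chose the genes, nothing is read from these shares. Over the 14 probe sets the median log2 difference was -0.02, and over all probe sets it was also -0.02. No probe set of the array passed Benjamini-Hochberg adjustment in the limma fit, where 2295 were at an unadjusted p under 0.05, nor in the unpaired test of the study's methods, where 1721 were. The smallest adjusted p was 0.141 among the members and 0.0612 among all probe sets.

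**Figure D1:**
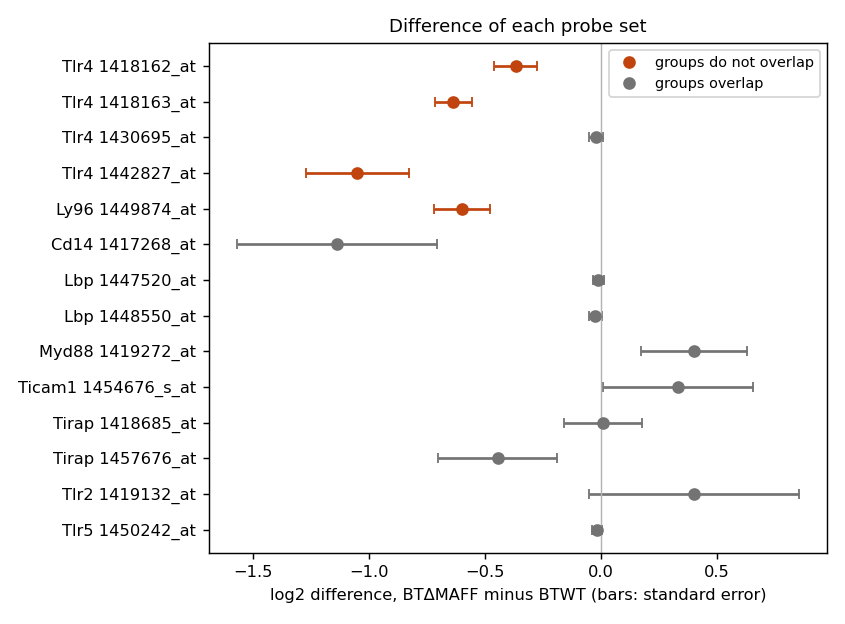
Log2 difference, BTΔMAFF minus BTWT, of each of the 14 probe sets (points) with its standard error (bars), n = 4 mice per group. The 4 probe sets whose groups do not overlap (orange) are 3 of Tlr4 and the 1 of Ly96, and Cd14 has the largest difference and the widest error of those below -0.5.

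Tlr4 (chr4:66827551-66846581, GRCm38.p6) encodes the receptor chain that spans the membrane and carries the intracellular TIR domain. Probe set 1442827_at read -1.30, -0.73, -0.23 and -0.45 in BTΔMAFF mice 1 to 4, against 0.23, 0.53, 0.33 and 0.43 in BTWT mice 1 to 4. The BTWT mice clustered tightly, while BTΔMAFF mice spread over more than a log2 unit, with replicate 1 lowest and replicate 3 nearest to BTWT. The group means were -0.68 ± 0.46 (SD, n = 4) in BTΔMAFF and 0.38 ± 0.13 (SD, n = 4) in BTWT, a log2 difference of -1.05 (SE 0.22), or 2.07-fold lower in BTΔMAFF. Probe set 1418163_at read -0.46, -0.42, -0.20 and -0.28 in the BTΔMAFF mice, against 0.46, 0.24, 0.30 and 0.20 in the BTWT mice. Here the spread was alike in the groups, at SDs of 0.12 in BTΔMAFF and 0.11 in BTWT, and the log2 difference was -0.64 (SE 0.08), or 1.56-fold lower in BTΔMAFF.

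The other probe sets of Tlr4 showed smaller differences. Probe set 1418162_at read -0.056, -0.30, -0.21 and -0.20 in BTΔMAFF, against 0.42, 0.091, 0.14 and 0.056 in BTWT, with a log2 difference of -0.37 (SE 0.09). BTΔMAFF replicate 1, the lowest mouse for 1442827_at, was the highest of its group here, and BTWT replicate 1 stood above the rest of its group. Probe sets 1418162_at and 1418163_at were designed on the same GenBank entry, whereas 1442827_at and 1430695_at each rest on an entry of their own. For 1430695_at all 8 mice lay within 0.095 of each other on the log2 scale, at -0.017, -0.015, -0.038 and 0.057 in BTΔMAFF and 0.023, 0.057, 0.0078 and -0.0078 in BTWT. Its groups overlapped and its log2 difference was -0.02 (SE 0.03). Over the 8 mice, 1442827_at had Pearson's r of 0.90 with 1418163_at, 0.60 with 1418162_at and 0.38 with 1430695_at, given as a description because these probe sets share the gene and the group difference. When any 1 array was left out, the log2 difference stayed between -1.20 and -0.84 for 1442827_at, between -0.68 and -0.58 for 1418163_at, and between -0.41 and -0.29 for 1418162_at.

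**Figure D2:**
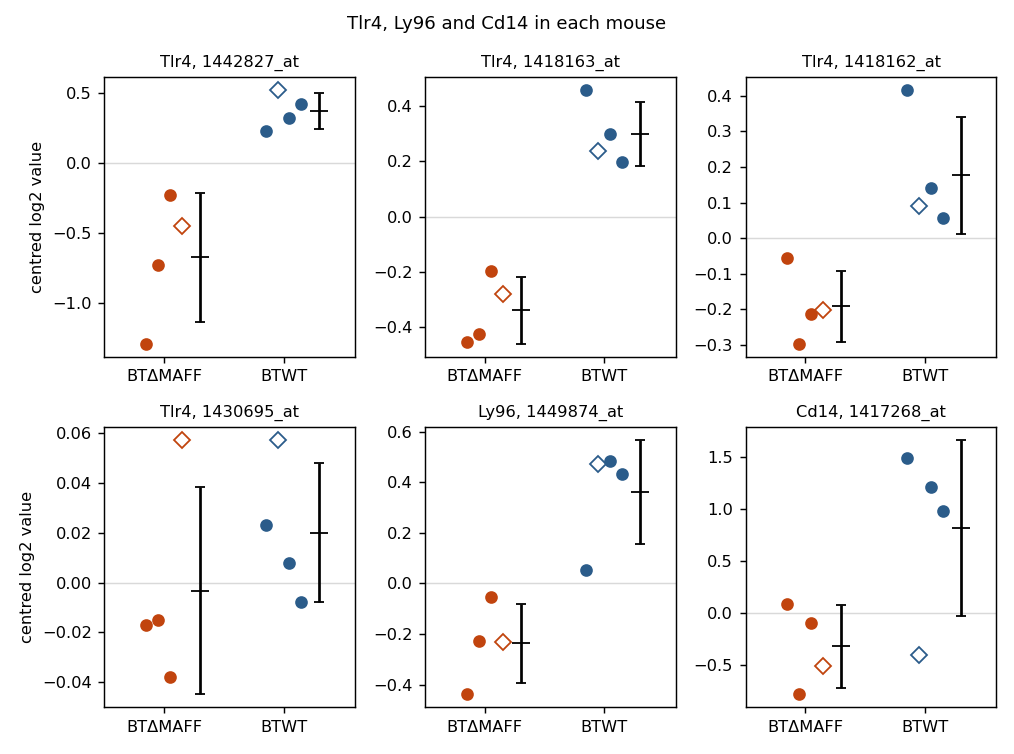
Centred log2 values of the 4 Tlr4 probe sets, Ly96 and Cd14 by mouse (points) beside the group mean and SD (bars, n = 4); open diamonds are BTΔMAFF replicate 4 and BTWT replicate 2. The BTΔMAFF mice lie below the BTWT mice in 3 Tlr4 probe sets and in Ly96, BTWT replicate 2 lies among the BTΔMAFF mice for Cd14, and 1430695_at spans only 0.095.

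Ly96 (chr1:16688456-16709605, GRCm38.p6) encodes MD-2, the secreted protein that holds the lipid A part of LPS against the TLR4 ectodomain. Its probe set 1449874_at read -0.44, -0.23, -0.054 and -0.23 in BTΔMAFF mice 1 to 4, against 0.054, 0.47, 0.48 and 0.43 in BTWT mice 1 to 4. The groups did not overlap, but by a margin of 0.11 that rested on BTΔMAFF replicate 3 and BTWT replicate 1; the other BTWT mice were all above 0.43. The group means were -0.24 ± 0.16 (SD, n = 4) in BTΔMAFF and 0.36 ± 0.21 (SD, n = 4) in BTWT. The log2 difference was -0.60 (SE 0.12), or 1.51-fold lower in BTΔMAFF, and it stayed between -0.70 and -0.53 with any 1 array left out.

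Cd14, which encodes the GPI-anchored LPS carrier that loads MD-2, had 1 probe set, 1417268_at, and the widest range of any member at 2.27 log2 units. It read 0.091, -0.78, -0.091 and -0.50 in BTΔMAFF and 1.49, -0.41, 1.21 and 0.98 in BTWT. BTWT replicates 1, 3 and 4 were far above every BTΔMAFF mouse, and BTWT replicate 2 lay below 2 of them. The group means were -0.32 ± 0.39 (SD, n = 4) in BTΔMAFF and 0.82 ± 0.84 (SD, n = 4) in BTWT. The log2 difference was -1.14 (SE 0.43), or 2.20-fold lower in BTΔMAFF. It was -1.55 without BTWT replicate 2 and -0.91 without BTWT replicate 1, the extremes when single arrays were left out. Cd14 was past the unadjusted threshold without BTΔMAFF replicate 1 or 3 or BTWT replicate 2, and not without any 1 of the other 5 arrays.

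Lbp, whose product is made mainly by the liver as an acute-phase protein and also by mucosal epithelia, had 2 probe sets with almost no variation. Probe set 1448550_at lay between -0.048 and 0.042 in BTΔMAFF and between -0.0042 and 0.061 in BTWT, with a log2 difference of -0.03 (SE 0.03). For 1447520_at the log2 difference was -0.01 (SE 0.02). Without a level it cannot be said whether these probe sets measured a steady transcript or none. In both, BTΔMAFF replicate 4 and BTWT replicate 2 had the highest values of their groups.

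MyD88 is the adaptor shared by most Toll-like and interleukin 1 receptors, and TRIF, the product of Ticam1, carries the interferon branch below TLR4 and TLR3. Unlike Tlr4, both had positive differences, with overlapping groups. Myd88 (1419272_at) read 0.44, 0.24, 0.68 and -0.36 in BTΔMAFF, against -0.31, -0.30, -0.16 and 0.16 in BTWT, a log2 difference of 0.40 (SE 0.23). BTΔMAFF replicate 4 was the lowest of all 8 mice, while the other BTΔMAFF mice were above every BTWT mouse. Without that array the log2 difference of Myd88 was 0.60, the highest value when single arrays were left out, and without BTΔMAFF replicate 3 it was 0.26, the lowest. Ticam1 (1454676_s_at) read 0.14, 0.31, 0.28 and -0.68 in BTΔMAFF, against -0.14, -0.98, -0.43 and 0.26 in BTWT, with a log2 difference of 0.33 (SE 0.32). The lowest mouse of each group, BTΔMAFF replicate 4 and BTWT replicate 2, lay well below the rest of its group, and leaving out the BTΔMAFF one gave a log2 difference of 0.56, the BTWT one 0.11.

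TIRAP bridges TLR4 and TLR2 to MyD88 at the plasma membrane. Its 2 probe sets did not have the same sign. Probe set 1457676_at read -0.44, 0.20, 0.016 and -0.66 in BTΔMAFF and -0.032, 0.16, -0.016 and 0.78 in BTWT, with a log2 difference of -0.44 (SE 0.26). Its group means lay closer together without BTWT replicate 4, the highest mouse, where the log2 difference was -0.26. The other, 1418685_at, had a log2 difference of 0.01 (SE 0.17) and was negative in 3 of the 8 fits that each left out 1 array.

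Among the receptors taken for contrast, Tlr2 (1419132_at) read 0.18, -0.0013, 0.74 and -1.15 in BTΔMAFF, against 0.018, -1.17, -0.68 and 0.0013 in BTWT. The groups overlapped widely, the lowest mouse of each being BTΔMAFF replicate 4 and BTWT replicate 2, and the log2 difference was 0.40 (SE 0.45). Leaving out BTΔMAFF replicate 4 gave 0.77, and leaving out BTΔMAFF replicate 3, the highest mouse, gave 0.14. Tlr5 (1450242_at) lay between -0.0094 and 0.0069 in BTΔMAFF and between -0.0075 and 0.042 in BTWT, the narrowest range of the 14 probe sets, with a log2 difference of -0.02 (SE 0.02).

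**Figure D3:**
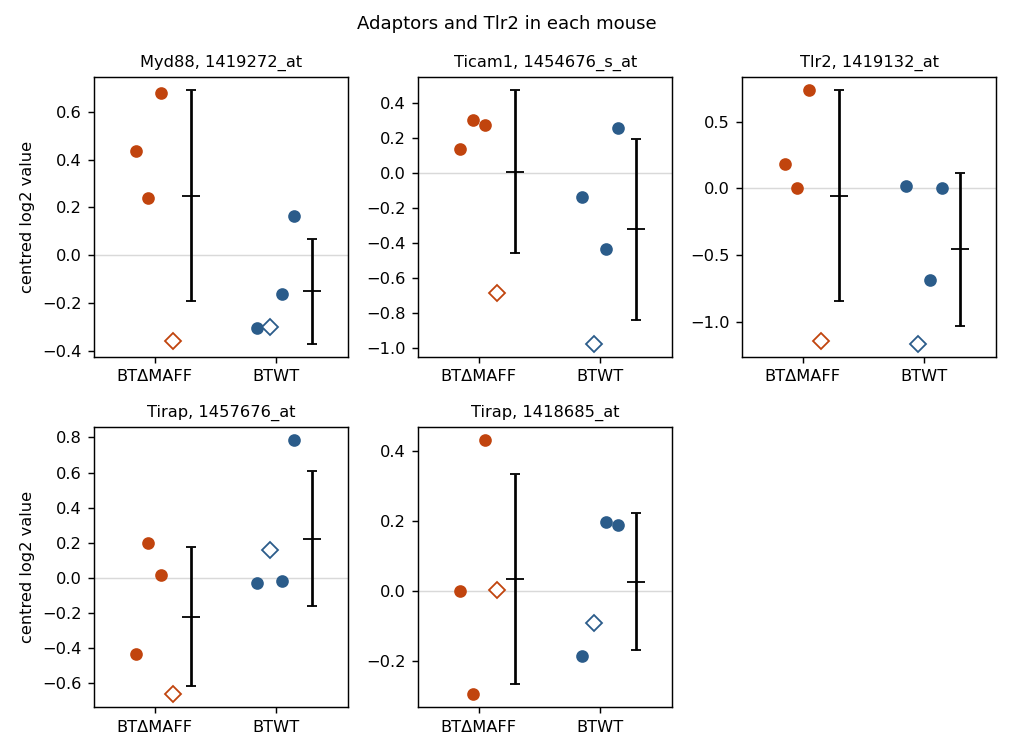
Centred log2 values of Myd88, Ticam1, Tlr2 and the 2 Tirap probe sets by mouse (points) beside the group mean and SD (bars, n = 4); open diamonds are BTΔMAFF replicate 4 and BTWT replicate 2. The groups overlap in all 5 probe sets, and both open diamonds are the lowest mice of their groups for Ticam1 and Tlr2.

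BTΔMAFF replicate 4 and BTWT replicate 2 were the outlying arrays on a first principal component that held 29.4% of the variance of all probe sets, and their arrays had the highest medians of their groups (0.041 and 0.038, against -0.030 to -0.013 in the other BTΔMAFF arrays and -0.0072 to 0.020 in the other BTWT arrays). The members differed in how they followed the array median. With group means removed from both, Pearson's r with the array median over 8 mice was 0.998 for Lbp 1447520_at, 0.997 for Tlr4 1430695_at and 0.951 for Lbp 1448550_at, and -0.95 for Myd88, -0.89 for Ticam1 and -0.88 for Tlr2. For 5 of the 14 probe sets, those named here except Tlr2, the adjusted p over the 14 was under 0.05 (exact permutation within groups, two-sided), the largest being 0.0486 for Ticam1, and it was 0.0567 for Tlr2. Spearman's rho was 0.98, 0.98, 0.81, -0.98, -0.79 and -0.76 in the same order; its adjusted p over the 14 was 0.0122 for Lbp 1447520_at and Tlr4 1430695_at, 0.0324 for Myd88, 0.122 for Lbp 1448550_at and Ticam1, and 0.13 for Tlr2. Without BTΔMAFF replicate 4 and BTWT replicate 2, r was 0.997, 0.996, 0.82, -0.96, -0.46 and -0.41, so for Ticam1 and Tlr2 the relation rests on those mice. Over all 8 mice, the 3 Tlr4 probe sets with separated groups and Ly96 had an r between -0.14 and 0.15, and Cd14 had -0.45. Without BTΔMAFF replicate 4 and BTWT replicate 2, r was -0.78 for Ly96 and 0.34 for Cd14. For Tlr4 it was then 0.67 in 1418162_at, 0.20 in 1418163_at and -0.54 in 1442827_at. The low r over all 8 mice therefore does not show that these probe sets were free of the array median.

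The tightness of the first relation was common on these arrays. Of all probe sets, 32.8% had an SD over the 8 arrays under 0.05, as did both Lbp probe sets, Tlr4 1430695_at and Tlr5. Taken over all 8 values, 32.2% of all probe sets had r of 0.95 or above with the array median, and 1.47% had r of -0.85 or below, among them Myd88, Ticam1 and Tlr2. Without BTΔMAFF replicate 4, 42.9% of all probe sets had groups that did not overlap, and 8 of the 14 members did, the further 4 being Tlr4 1430695_at, both Lbp probe sets and Myd88. Without both arrays, 45.1% of all probe sets and 9 members were separated, and the log2 difference was -1.49 (SE 0.28) for Cd14, 0.55 (SE 0.17) for Myd88, 0.34 (SE 0.19) for Ticam1 and 0.53 (SE 0.29) for Tlr2. For Tlr4 it was then -1.08 (SE 0.29) in 1442827_at, -0.68 (SE 0.10) in 1418163_at and -0.39 (SE 0.12) in 1418162_at, and for Ly96 -0.56 (SE 0.16), each close to its value over all mice.

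With group means removed, Tlr2, Myd88 and Ticam1 had the most negative r with the array median over all 8 mice. For Ticam1 and Tlr2 this rests on BTΔMAFF replicate 4 and BTWT replicate 2. Tirap 1457676_at came next, with r of -0.67, and -0.65 without those arrays. The 250 bases before a transcription start of Tlr2, Myd88 and Ticam1 are shown. The sequences come from a table of RefSeq promoters on GRCm38.p6 in which 5 of the 10 genes were matched. Tlr2 lies at chr3:83841609-83841858, Myd88 at chr9:119340019-119340268 and Ticam1 at chr17:56276768-56277017, all on the minus strand and printed 5′ to 3′ toward that start. For Tlr2 the start in the table lies inside the annotated gene (chr3:83836272-83841824), so 216 of its 250 bases are within the gene span, against 0 for Myd88 and Ticam1. Capitals mark every match, on either strand, to TATAAA (a TBP site), GAGGAA (the PU.1 core), GGGCGG (a GC box), TGANTCA (AP-1) or the NF-κB consensus.
Tlr2: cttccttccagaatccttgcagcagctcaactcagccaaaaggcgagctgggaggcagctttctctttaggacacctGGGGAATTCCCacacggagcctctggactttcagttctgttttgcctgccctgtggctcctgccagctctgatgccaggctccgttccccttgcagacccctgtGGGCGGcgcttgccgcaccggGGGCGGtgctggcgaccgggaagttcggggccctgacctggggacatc
Myd88: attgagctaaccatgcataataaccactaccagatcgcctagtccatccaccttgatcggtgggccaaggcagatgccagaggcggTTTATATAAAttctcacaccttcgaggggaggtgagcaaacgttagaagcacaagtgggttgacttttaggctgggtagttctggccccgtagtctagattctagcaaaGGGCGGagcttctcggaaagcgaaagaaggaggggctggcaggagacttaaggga
Ticam1: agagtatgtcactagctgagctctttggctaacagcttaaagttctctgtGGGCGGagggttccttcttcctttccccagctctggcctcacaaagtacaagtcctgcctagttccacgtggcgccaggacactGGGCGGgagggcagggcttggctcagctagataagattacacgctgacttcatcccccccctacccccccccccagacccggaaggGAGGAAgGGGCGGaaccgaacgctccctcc
Each of the 3 held a GC box, 2 in Tlr2, 1 in Myd88 and 3 in Ticam1, which 32.7% of 32851 RefSeq promoters of this length also held. Tlr2 had 2 overlapping NF-κB matches, the nearer starting 172 bases before the start used here and within the annotated gene, against 7.25% of promoters with any. Myd88 had 2 overlapping TBP site matches, the nearer starting 160 bases before the start (12.4% of promoters), and Ticam1 had a PU.1 core 30 bases before it (23.3%). None of the 3 matched AP-1, as 6.75% of promoters did. These matches describe the letters only.

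Of the 91 pairs of member probe sets, compared within groups, 0 had an adjusted p under 0.05 from the exact permutation test and 16 were at an unadjusted p under 0.05, where the smallest p that 576 permutations allow is 0.00174. The 3 pairs at that smallest p, between the Lbp probe sets and Tlr4 1430695_at (r of 0.96 to 1.00), had an adjusted p of 0.0527, and a lone pair there would have 0.158, so the adjusted values cannot tell whether pairs vary together. Ly96 and Tlr4 1442827_at, receptor partners, had r = 0.72 and rho = 0.67 (adjusted p = 0.158 and 0.5, exact permutation over 91 pairs, 8 mice), and r = 0.54 without the 2 mice farthest from the median of Tlr4. Against Tlr4 1418162_at, Ly96 ran the other way, with r = -0.86 and rho = -0.55 (adjusted p = 0.269 and 0.588, the same exact test), but r was 0.27 without BTΔMAFF replicate 1 and BTWT replicate 1, so that sign rests on those mice. With 1418163_at its r was -0.11. Ticam1 and Tlr2 had r = 0.91 and rho = 0.74 (adjusted p = 0.158 and 0.485, the same exact test), and r = 0.58 without BTΔMAFF replicate 4 and BTWT replicate 2.

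**Figure D4:**
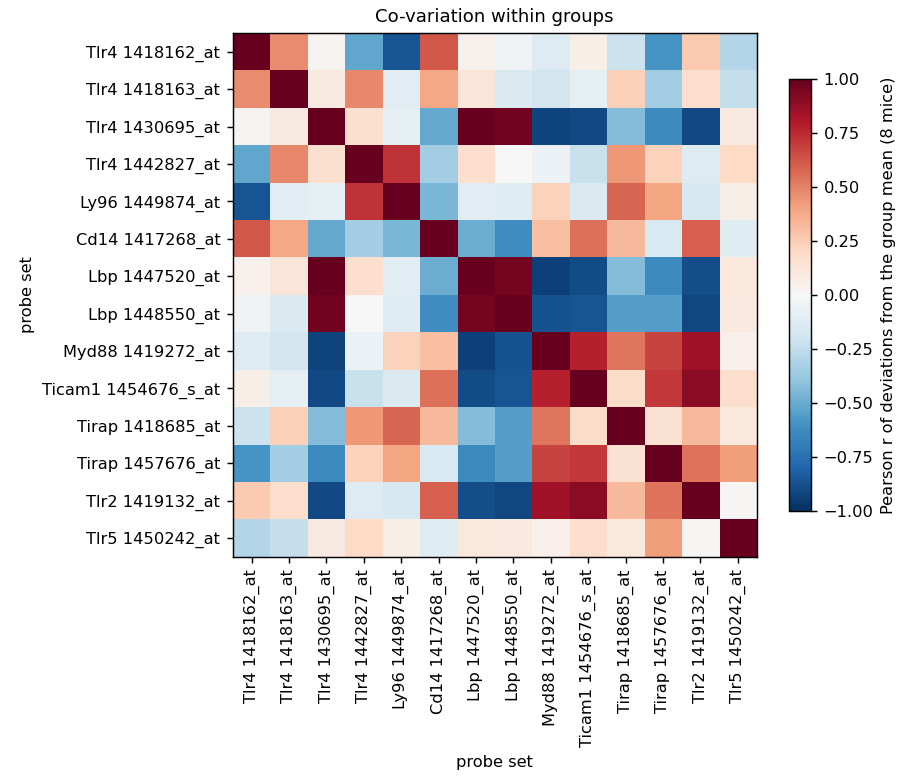
Pearson's r, over 8 mice, between the deviations of each pair of the 14 probe sets from their group means; both axes list the probe sets. Lbp and Tlr4 1430695_at form a block with r of 0.96 to 1.00 and run against Myd88, Ticam1 and Tlr2 at -0.93 to -0.87.

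**Figure D5:**
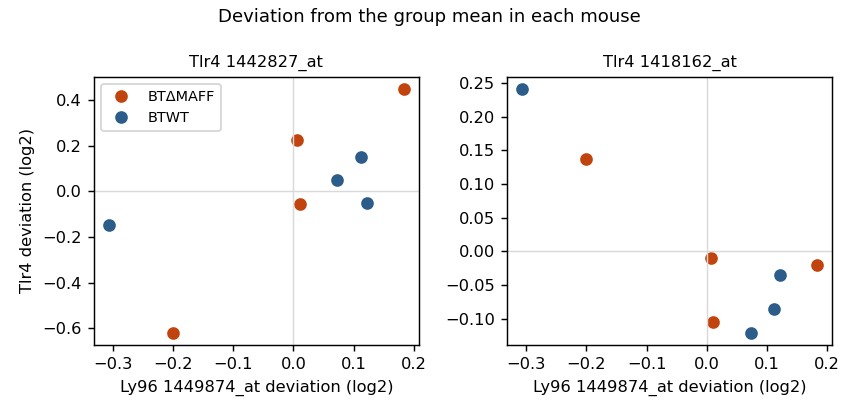
Deviation from the group mean of 2 Tlr4 probe sets (vertical, log2) against that of Ly96 (horizontal, log2), each point 1 mouse. The points rise with Ly96 for 1442827_at (r = 0.72) and fall for 1418162_at (r = -0.86), where BTΔMAFF replicate 1 and BTWT replicate 1 lie at the upper left.

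The genes most like Tlr4, taken as the 5 highest Pearson's r over the 8 mice with 1442827_at among 18184 other genes at 1 probe set each, were Ablim1 (r = 0.97), Mgrn1 (0.96), Trpm6 (0.96), Dcaf1 (0.96) and Neurl1b (0.95). In all, 16 genes reached 0.9. This likeness includes the group difference: Ablim1, an actin-binding LIM protein, had a log2 difference of -1.52 (SE 0.35) and Trpm6, a magnesium channel, one of -1.35 (SE 0.22). Groups did not overlap in 4 of the 5, against 2.83% of all probe sets, the exception being Mgrn1, an E3 ubiquitin ligase, at -0.72 (SE 0.24). Because the 5 were picked by likeness to a probe set with separated groups, nothing is read from that count. With group means removed, their r with 1442827_at ran from 0.816 for Trpm6 to 0.945 for Mgrn1.

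The rest of the pathway was taken from 5 lists, taking for each gene the probe set of largest SD over the 8 arrays. Of 71 genes listed, 61 were measured; 1 was lower and 3 were higher in BTΔMAFF in limma (unadjusted p under 0.05), and 57 were not called either way. Among all genes at 1 probe set each, 2.35% were lower and 3.37% were higher at that threshold, and their median log2 difference was -0.02.

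Among 9 genes of other LPS handling and sensing, the median log2 difference was -0.02, with 1 lower and 1 higher. Casp4, the mouse caspase-11 that binds LPS in the cytosol, had a log2 difference of -0.50 (SE 0.19) with overlapping groups. Gsdmd, the pore-forming protein that such caspases cleave, was 1.51-fold higher in BTΔMAFF (log2 difference 0.60, SE 0.09), at 0.15 to 0.43 in BTΔMAFF and -0.42 to -0.15 in BTWT. Gbp2, an interferon-induced GTPase, had a log2 difference of 2.02 (SE 0.95) and overlapping groups, with 1 BTWT mouse at -3.74.

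None of the 10 other Toll-like receptor genes and their relatives reached the threshold (median -0.02); Tlr3, the receptor for double-stranded RNA, had -0.40 (SE 0.30), and Tlr9 and Tlr13, receptors for bacterial nucleic acids, had -0.03 each (SE 0.04). Nor did any of the 8 receptor chaperones and trafficking genes (median -0.04), which include Hsp90b1 (gp96), a chaperone of Toll-like receptors, at -0.36 (SE 0.22), its co-chaperone Cnpy3 at 0.26 (SE 0.19), and Tmed7 at -0.28 (SE 0.22). Of 19 genes of signalling below the adaptors (median 0.06), 1 was higher: Ikbkb, the kinase IKKβ that releases NF-κB, at 0.58 (SE 0.20), with 3 of its 4 other probe sets of the same sign. Irak2, a kinase recruited by MyD88, had -0.20 (SE 0.08) and Ikbke 0.48 (SE 0.23). Of 15 negative regulators (median 0.05), 1 was higher, Tnip1, a partner of the NF-κB inhibitor A20, at 0.45 (SE 0.16) with groups that did not overlap. The deubiquitinase Cyld had 0.77 (SE 0.33), with 1 of its 3 other probe sets of the same sign, and the ubiquitin ligase Rnf216 had 0.23 (SE 0.11).

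Markers of other cells that carry TLR4 and CD14 were examined beside these results. Of 12 macrophage and monocyte markers, including Ptprc, Csf1r and Adgre1, 0 were lower and 0 were higher at an unadjusted p under 0.05 from limma, the median log2 difference was -0.02, and the list's mean lay between -0.027 and 0.14 in BTΔMAFF mice and between -0.0089 and 0.084 in BTWT mice. The 7 neutrophil markers also held 0 in either direction, with a median of -0.02 and list means of -0.044 to 0.051 in BTΔMAFF and -0.0093 to 0.068 in BTWT. Among 7 fibroblast markers the median was 0.36 and 1 was lower, Pdgfrb at -1.16 (SE 0.33), whose 1 other probe set had the other sign. Col3a1 at 1.14 (SE 0.49) and Dcn at 1.03 (SE 0.675) were positive, and the 1 other probe set of each had the other sign. Col1a1 at 0.77 (SE 0.45) and Col1a2 at 0.36 (SE 0.48) were positive too, and none of these reached the threshold. Lum at -0.01 (SE 0.03) and Pdgfra at -0.04 (SE 0.06) were slightly negative. The fibroblast list's mean lay between -0.087 and 0.97 in BTΔMAFF and between -0.35 and 0.55 in BTWT. For endothelium, T cells, and B and plasma cells no marker reached the threshold, and the medians lay between -0.017 and -0.015. Without a level it cannot be said which of these markers are at background, and their part in the Tlr4, Ly96 and Cd14 differences was not tested.

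Epithelial markers were examined in the same way. Of 9 epithelial markers, 3 were higher in BTΔMAFF and 0 lower (median 0.10), where 3.37% of all genes were higher and 2.35% lower. Higher were Vil1, the brush border protein villin, at 0.40 (SE 0.10) and Krt20, a keratin of differentiated cells, at 0.32 (SE 0.10). Krt19 was also higher, at 0.22 (SE 0.08). Epcam at -0.10 (SE 0.23), Cdh1 at -0.11 (SE 0.10) and Cldn7 at -0.001 (SE 0.04) had negative differences. The 1 other Epcam probe set had the other sign. The mean of that list ranged from -0.0046 to 0.14 in BTΔMAFF and from -0.12 to 0.027 in BTWT. Of 7 surface colonocyte markers (median 0.10), 2 were higher: Krt20, also in the epithelial list, and the chloride and bicarbonate exchanger Slc26a3 at 0.48 (SE 0.08). Aqp8 at -0.43 (SE 0.23) and Ceacam1 at -0.26 (SE 0.16) had negative differences that did not reach the threshold. This list's mean ranged from -0.039 to 0.12 in BTΔMAFF and from -0.14 to 0.10 in BTWT. Of 7 goblet cell markers, 2 were higher and 1 was lower (median 0.17). Clca1 at 0.90 (SE 0.26) and Fcgbp at 0.67 (SE 0.14) were higher, with groups that did not overlap. Agr2 at -0.55 (SE 0.19) was lower, with overlapping groups. Goblet list means were 0.028 to 0.26 in BTΔMAFF and -0.26 to 0.16 in BTWT. Of 6 crypt base markers 0 reached the threshold, with a median of -0.42 and list means of -0.31 to 0.48 in BTΔMAFF and -0.051 to 0.69 in BTWT. The groups overlapped in the mean of every marker list examined. RNA quality, read as the Gapdh controls' 3-prime value less the 5-prime one, ranged from -0.18 to 0.17 in BTΔMAFF and from -0.25 to 0.018 in BTWT. For the β-actin controls the same difference was -0.035 to 0.083 in BTΔMAFF and -0.062 to -0.017 in BTWT, and the groups overlapped narrowly. The control values are centred too, so these differences compare mice only, and their sign does not measure RNA quality itself. How far cell composition or RNA quality enters the members' differences was not tested.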

How the data were processed

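RNA of sorted cells was amplified (NuGen Ovation Pico) before hybridization to Affymetrix mouse genome arrays. The authors deposited log2 values of 45101 probe sets whose median over the 8 arrays is 0. GeneSpring is named in the methods, and Affymetrix Expression Console in the submitters' processing notes; how background was corrected and arrays were normalized is not given in the sources used here. How these steps treated dim probe sets could change the small differences, and the number of arrays limits the precision.

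After 64 Affymetrix controls were left out, 45037 probe sets were fitted with limma 3.58.1 (R 4.3.3; lmFit and eBayes, BTΔMAFF minus BTWT, no covariate, Benjamini-Hochberg threshold 0.05). Symbols came from the platform annotation: 34945 probe sets have 1, 932 several and 9160 none. Member gene IDs matched RefSeq. Correlations removed group means. The fit was checked on simulated independent noise with planted differences larger than any member's. That check covers neither smaller differences nor outlying arrays. Alternatives were quantile normalization, array medians, array weights, robust prior, replicate block, omitted arrays, an SD filter in place of a filter on dim probe sets, and the methods' test. Every member probe set is reported; from each pathway list the 3 genes of smallest p are named, as are the 5 genes most like Tlr4, and other markers were named after their values were seen. Members and lists were chosen with earlier results of these data known. Nothing states whether same-numbered mice were paired.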

Additional observations from a re-analysis of the deposited data

Results flagged for a closer look

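In 2 of 28 groups of 4 mice, 1 mouse lay far from the rest by Dixon's criterion, where chance gives about 1 in 20 groups. BTWT replicate 1 was at 0.054 for Ly96, against 0.43 in the nearest and 0.48 in the highest BTWT mouse, a gap of 0.885 of the group's range. BTΔMAFF replicate 4 was at 0.0069 for Tlr5, against -0.0069 in the nearest and -0.0094 in the lowest BTΔMAFF mouse (0.849 of a range that is itself narrow).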

How the results depend on the processing

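The log2 differences of Tlr4 1442827_at, 1418163_at and 1418162_at, Ly96, Cd14, Myd88, Ticam1 and Tlr2 kept their sign in all 16 alternatives. The SD filter, the replicate block, the robust prior and the methods' test cannot change these differences, so their part of that count was fixed in advance. Member probe sets whose groups did not overlap numbered 4, where 2.83% of all probe sets were separated. They numbered 4 to 8 when single arrays were left out, the 8 being without BTΔMAFF replicate 4 (42.9% of all probe sets). Without both arrays that stand apart there were 9 (45.1% of all probe sets). Members at an unadjusted p under 0.05 in limma numbered 5 (5.1% of all probe sets), also 5 with the replicate block (6.1%). They numbered 4 to 5 without single arrays, where the share of all probe sets ran from 3.94% to 9.99%. There Cd14 dropped out in 5 of the 8 fits and Myd88 entered without BTΔMAFF replicate 4. There were 7 with array weights, adding Myd88 and Ticam1, where 25.6% of all probe sets were at that threshold. Without both arrays there were 6, adding Myd88 (10.5% of all probe sets), and in the methods' test 4 (3.82%). Over all probe sets, 0 passed adjustment, against 510 with array weights, 25 with the SD filter (22519 probe sets tested), 1 with arrays centred on their medians, 2 without both arrays, and 0 to 6 without single arrays, the 6 being without BTΔMAFF replicate 4. With array weights, 3 members passed (Tlr4 1418163_at and 1442827_at, and Cd14); that fit gave weights of 4.68 to BTWT replicate 3 and 4.36 to BTΔMAFF replicate 2, and at most 1.33 to any other array. Array weights also gave Tirap 1457676_at -0.06, against -0.44, and Tirap 1418685_at -0.25, against 0.01, so both were negative in that fit. The cause of these shifts was not tested. Deviations of same-numbered mice from their group means had r from -0.27 for replicate 4 to 0.39 for replicate 1 over all probe sets. These correlations cannot show whether the numbers pair the mice. The replicate block left 0 probe sets past adjustment. Near-constant probe sets (both of Lbp, Tlr4 1430695_at, Tlr5) carry differences below their standard errors and allow no statement on direction.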
